A study of Homo sapiens with 6 samples.

Results

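The 10 genes described here belong to the transcriptional arm of the amino acid response. They are the transcription factor genes ATF4, ATF3, ATF5, DDIT3 (which encodes CHOP), CEBPB, CEBPG, CEBPD and JDP2, the transcriptional cofactor gene NUPR1 and the pseudokinase gene TRIB3. The genes were taken by name for their known roles in this pathway, with no threshold on a measured value, though earlier results of these data were known. All 10 were among the 24462 gene symbols counted and passed the filter on low counts. H460, an established human lung cancer cell line, was used throughout. Glutamine-depleted cells (3 libraries) had spent 24 h in RPMI 1640 medium that lacked glutamine and held 10% dialyzed serum, and glutamine-replete cells (3 libraries) were grown in RPMI 1640 with 10% fetal bovine serum. Whether the replete cells also had dialyzed serum for that day is not given, so lack of glutamine and dialysis of the serum cannot be told apart. The libraries were of the QuantSeq kind, which samples mRNA at its 3′ end.

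Library totals ran from 8667798 to 10914899 counts in depleted cells and from 7550849 to 9028230 in replete cells, and levels are given as CPM, which sets all library totals equal. Nothing states that replicates were separate cultures, and the p-values therefore rest on a spread between samples that may be technical. All pairs of replicates differed beyond sampling noise, and depleted replicate 2 stood apart, its chi-square divided by the degrees of freedom being 18.0 and 10.9 against the other depleted libraries, where those differed by 3.71 and replete pairs by 1.496 to 1.987. Of the 6 epithelial markers, the keratin genes KRT8 (81.7 CPM in depleted and 198 CPM in replete cells) and KRT19 (326 CPM in depleted and 1399 CPM in replete cells) fell. KRT7 (38.2 CPM in depleted and 8.94 CPM in replete cells) rose, and KRT18 (393 CPM in depleted and 478 CPM in replete cells) did not pass the test. EPCAM, at 0.207 CPM in depleted and 0.404 CPM in replete cells, and CDH1, with 0 counts in depleted libraries and 1 count in 1 replete library, were too low to test. The 10 markers of other cell types summed to 153 to 203 CPM in depleted and 30.5 to 45.7 CPM in replete libraries, with ACTA2, a smooth muscle actin, at 118 CPM in depleted and 12.3 CPM in replete cells. COL3A1 (26.5 CPM in depleted and 11.4 CPM in replete cells) and PDGFRB (6.32 CPM in depleted and 2.43 CPM in replete cells) rose as ACTA2 did. CD14 (0.497 CPM in depleted and 2.60 CPM in replete cells) fell, and COL1A1, at 56.5 CPM in depleted replicate 3 and 3.43 to 13.4 CPM elsewhere, did not pass. The remaining 5 were too low to test, among them VWF with no count and PTPRC, which averaged 0.145 CPM in depleted and 0.126 CPM in replete cells. The labels name H460 alone, and which cells of the culture expressed these markers was not tested. In bulk RNA, fewer cells that express a gene and less RNA per cell cannot be told apart.

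When an amino acid runs short, uncharged tRNA activates the kinase GCN2, which phosphorylates the translation factor eIF2α. General protein synthesis then falls, while ribosomes pass the upstream reading frames of the ATF4 and ATF5 mRNAs and translate the main frame. ATF4 is a basic leucine zipper (bZIP) protein that binds DNA mainly as a heterodimer, often with a C/EBP protein, at composite C/EBP-ATF response elements with the core TGATGNAA. Through such elements it induces amino acid transporters and synthetic enzymes together with further regulators, among them ATF3, CHOP and TRIB3, some of which feed back on ATF4. Much of this control acts on translation and protein stability, so the mRNA levels given here do not stand for protein levels.

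RefSeq promoter windows (GRCh38.p14, 250 bases before to 50 bases after an annotated start) were at hand for 8 of the 10 genes, 19 windows in all, and were searched on both strands. The octamer TGATGCAA, the best-known form of the TGATGNAA core and therefore counted within it too, was found in 1 of the 3 JDP2 windows, at bases −16 to −9 from the start, and in 1 of the 2 CEBPG windows, at −42 to −35. It occurs in 0.866% of all 35116 windows. ATF3 held the looser core TGATGNAA at −191 to −184 in 1 of its 2 windows, against 3.62% of all windows. The AP-1 site TGACTCA, present in 4.95% of all windows, was found near the far end of both overlapping DDIT3 windows and in 1 of the 3 ATF5 windows. The palindrome TGACGTCA of the ATF and CREB proteins, present in 1.85% of all windows, had no match in these 19 windows, and none of the 4 motifs matched in the windows of ATF4, CEBPB or TRIB3. A missing match says only that these letters are not in this window, and a match is not evidence of binding. The 250 bases before the start are shown for JDP2 and CEBPG, which hold the same octamer, and for ATF3 and DDIT3, which rose most of the 10 genes, with the matched letters in capitals, 5′ to 3′ on the strand of the gene. They lie at chr14:75427772-75428021 (plus strand) for JDP2, chr19:33373863-33374112 (plus strand) for CEBPG, chr1:212565157-212565406 (plus strand) for ATF3 and chr12:57520515-57520764 (minus strand) for DDIT3.
JDP2: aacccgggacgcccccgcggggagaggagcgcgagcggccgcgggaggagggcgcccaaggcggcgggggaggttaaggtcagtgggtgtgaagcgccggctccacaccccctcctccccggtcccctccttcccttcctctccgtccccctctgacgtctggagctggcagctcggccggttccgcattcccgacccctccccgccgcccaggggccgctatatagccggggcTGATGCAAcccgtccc
CEBPG: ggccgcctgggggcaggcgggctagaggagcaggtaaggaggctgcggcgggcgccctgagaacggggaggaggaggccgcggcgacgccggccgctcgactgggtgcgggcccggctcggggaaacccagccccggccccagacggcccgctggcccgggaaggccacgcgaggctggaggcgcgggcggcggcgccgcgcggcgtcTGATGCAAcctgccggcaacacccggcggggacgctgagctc
ATF3: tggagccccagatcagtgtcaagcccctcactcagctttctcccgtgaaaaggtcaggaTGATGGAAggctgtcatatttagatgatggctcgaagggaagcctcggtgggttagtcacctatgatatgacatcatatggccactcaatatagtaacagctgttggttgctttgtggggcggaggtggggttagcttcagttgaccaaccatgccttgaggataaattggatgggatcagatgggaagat
DDIT3: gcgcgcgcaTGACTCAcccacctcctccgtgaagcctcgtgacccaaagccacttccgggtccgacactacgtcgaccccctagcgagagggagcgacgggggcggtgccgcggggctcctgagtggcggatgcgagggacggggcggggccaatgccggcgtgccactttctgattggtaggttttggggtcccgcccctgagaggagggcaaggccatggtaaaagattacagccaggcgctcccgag
The counts come from transcript ends and do not tell which of several starts was in use.

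The first question was which factors of this network differed after a day without glutamine. Of the 10 genes, 8 rose and 2, JDP2 and CEBPD, fell in depleted cells at an adjusted p under 0.05 in edgeR's quasi-likelihood test. The change of the whole transcriptome was wide: of 12739 genes tested, 78.6% passed the same threshold, 39.1% higher and 39.4% lower in depleted cells. All 10 fitted changes were more than 2-fold, where 21.8% of all genes rose and 23.7% fell by as much. The CPM ranges of the groups overlapped for none of the 10 genes, and did not overlap for 81.0% of all genes.

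**Figure D1:**
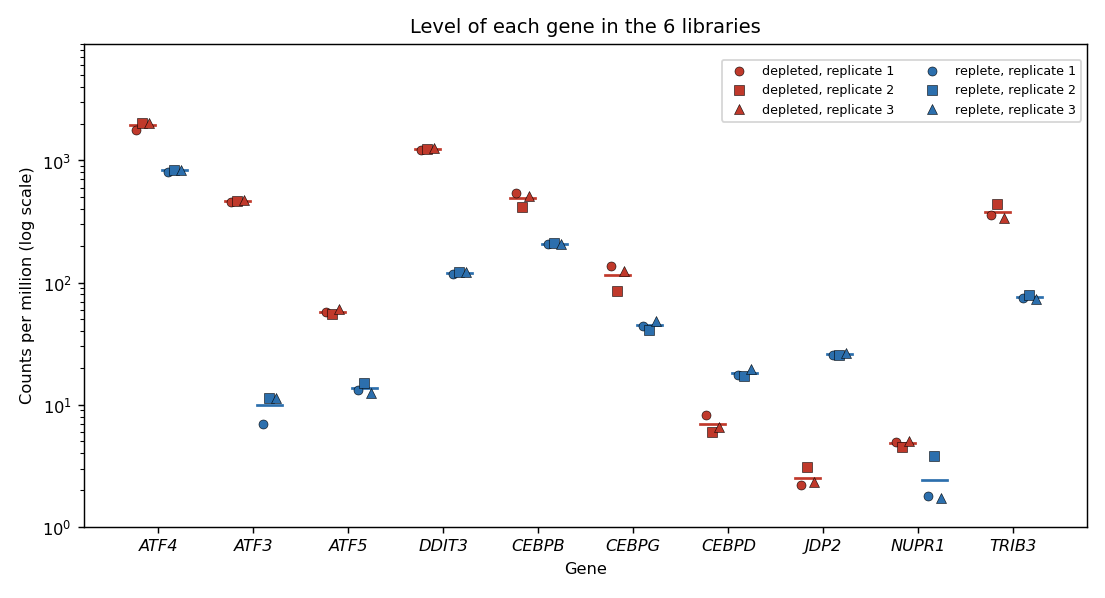
Level of each gene in CPM (log axis) in the 3 glutamine-depleted (red) and 3 glutamine-replete (blue) libraries, with a bar at the group mean and a marker shape for each replicate. The depleted libraries lie above the replete libraries for 8 genes and below them for CEBPD and JDP2, and ATF3 shows the widest gap, at 461 to 478 CPM against 6.98 to 11.4 CPM.

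ATF4, the hub of the response, had 1790.0, 2028 and 2031 CPM in the depleted libraries, against 806, 839 and 842 CPM in the replete libraries. Its transcript was well measured in both groups, and every depleted library lay above every replete one. The log2 fold change was 1.46 (SE 0.07, edgeR adjusted p = 4.68e-10), which placed ATF4 at rank 1769 from the top among the 12739 genes. ATF5, a relative of ATF4 whose mRNA also carries upstream reading frames, had 57.0, 55.7 and 60.3 CPM in the depleted libraries, against 13.3, 15.03 and 12.6 CPM in the replete libraries. It rose by 2.31 on the log2 scale (SE 0.11, edgeR adjusted p = 4.92e-10), and its interval of 2 SE around the estimate, 2.09 to 2.52, lay above that of ATF4, 1.33 to 1.59. Exons of ATF5 share 626 of 2954 bases with exons of the nucleoporin gene NUP62 on the opposite strand in the GENCODE 29 annotation, none of them among the last 300 exon bases of ATF5. NUP62 went the other way, at 31.7 CPM in depleted and 59.9 CPM in replete cells (means, log2 fold change −0.69, edgeR adjusted p = 2.10e-05).

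ATF3, a stress-induced bZIP protein that represses as a homodimer, showed the largest change of the 10 genes. It had 461, 469 and 478 CPM in the depleted libraries, against 6.98, 11.4 and 11.4 CPM in the replete libraries. The depleted libraries varied by 1.88% (coefficient of variation), while the replete values rested on 63, 90 and 86 counts and varied by 25.6%, with replete replicate 1 the lowest. Its log2 fold change was 5.80 (SE 0.15, edgeR adjusted p = 2.37e-11), a mean 47.4-fold higher in CPM, at rank 72 from the top of all genes. DDIT3, whose product CHOP dimerizes with C/EBP proteins and promotes cell death under lasting stress, had 1227, 1250.3 and 1265 CPM in the depleted libraries, against 117, 122 and 123 CPM in the replete libraries. The groups lay far apart, and the coefficient of variation was 1.56% in depleted and 2.60% in replete cells. DDIT3 rose by 3.60 on the log2 scale (SE 0.07, edgeR adjusted p = 1.84e-13), at rank 288 of all genes.

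DDIT3 lies tail to tail with MARS, the methionyl-tRNA synthetase gene, and in the GENCODE 29 annotation 355 of its 1307 exon bases, 68 of them among its last 300, are also exons of MARS on the opposite strand. MARS moved with it, at 1212 ± 34.1 CPM in depleted and 255 ± 6.09 CPM in replete cells (mean ± SD, n = 3 each, log2 fold change 2.47, edgeR adjusted p = 2.86e-12). For each MARS count there were 1.01, 1.06 and 1.02 DDIT3 counts in the depleted libraries, against 0.470, 0.467 and 0.480 in the replete libraries. The ratio was higher in every depleted library than in any replete one. Whether reads were counted by strand is not given, so reads from the shared bases cannot be assigned to either gene, and their part in both values was not tested. MBD6, which encodes a methyl-CpG-binding domain protein, shares 58 exon bases with DDIT3 away from its 3′ end and averaged 98.8 CPM in depleted and 25.1 CPM in replete cells (log2 fold change 2.20, edgeR adjusted p = 2.95e-10).

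**Figure D2:**
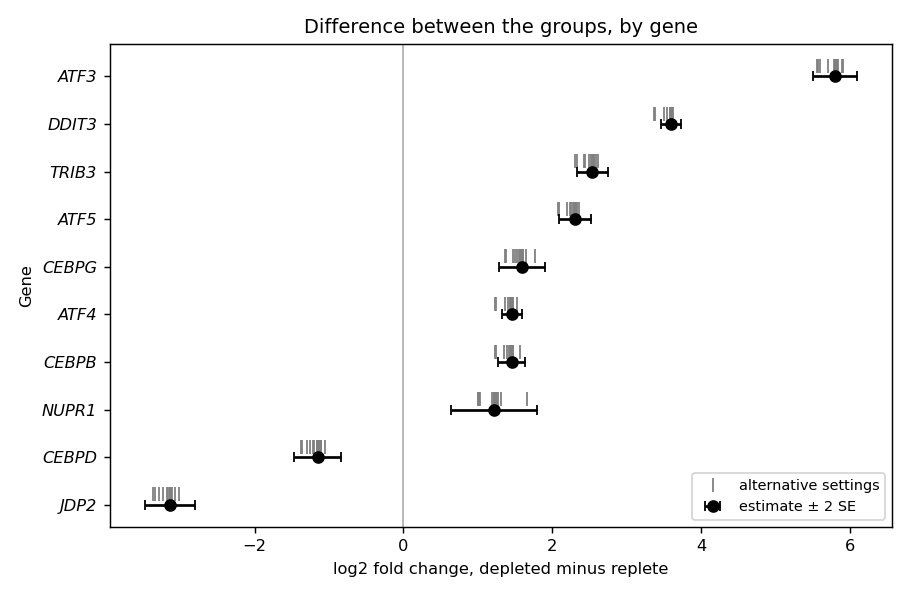
log2 fold change (depleted minus replete) of each gene, with bars of 2 standard errors from edgeR and grey ticks for the values under the alternative settings. The estimates run from −3.13 for JDP2 to 5.80 for ATF3, and no alternative moved a gene across 0.

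The C/EBP proteins are partners of ATF4 and CHOP, and their genes moved in both directions. CEBPB, an activator with inhibitory isoforms that is itself induced by amino acid limitation, had 542, 413 and 512 CPM in the depleted libraries, against 207, 211 and 207 CPM in the replete libraries. CEBPG, which lacks an activation domain and supports ATF4 as a heterodimer partner, had 136, 85.9 and 124 CPM in the depleted libraries, against 44.1, 41.0 and 48.6 CPM in the replete libraries. For both genes depleted replicate 2 was the lowest depleted library and still lay well above all replete libraries. CEBPB rose by 1.46 on the log2 scale (SE 0.09, edgeR adjusted p = 7.28e-09), or 1.57 without depleted replicate 2. CEBPG rose by 1.60 (SE 0.15, edgeR adjusted p = 3.97e-06), or 1.78 without that library. The intervals of 2 SE of ATF4, CEBPB and CEBPG overlap, so no order among these 3 changes is given.

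CEBPD, an early-response C/EBP factor linked to inflammation and growth arrest, went the other way. It had 8.25, 5.96 and 6.58 CPM in the depleted libraries, against 17.6, 17.2 and 19.7 CPM in the replete libraries. The groups did not overlap, although the depleted values rest on 90, 52 and 57 counts. CEBPD fell by 1.15 on the log2 scale (SE 0.16, edgeR adjusted p = 1.69e-05), and its adjusted p reached at most 0.000228 under the alternatives.

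JDP2, a bZIP repressor that binds AP-1 and CRE sites and recruits histone deacetylase, showed the largest decrease. It had 2.20, 3.09 and 2.31 CPM in the depleted libraries, against 25.4, 25.8 and 26.6 CPM in the replete libraries. In counts these were 24, 27 and 20 in depleted cells, against 229, 204 and 201 in replete cells. The mean was 10.2-fold lower in CPM, and the log2 fold change was −3.13 (SE 0.17, edgeR adjusted p = 2.03e-09), at rank 343 from the bottom of all genes. JDP2 and CEBPG, whose windows shown above hold the same octamer TGATGCAA, thus moved in opposite directions. JDP2 and ATF3 encode closely related proteins, and their mRNAs moved furthest apart of the 10.

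NUPR1 and TRIB3 encode regulators outside the bZIP family. NUPR1, a small stress-induced nuclear protein that acts as a transcriptional cofactor, had 4.95, 4.47 and 5.08 CPM in the depleted libraries, against 1.77, 3.79 and 1.72 CPM in the replete libraries. Its values rest on 54, 39 and 44 counts in depleted and 16, 30 and 13 counts in replete cells, and replete replicate 2 came close to the depleted range without reaching it. NUPR1 rose by 1.22 on the log2 scale (SE 0.29, edgeR adjusted p = 0.00174), the largest adjusted p of the 10 genes, with 1.66 without replete replicate 2 and 1.00 without replete replicate 1. TRIB3, a pseudokinase induced by ATF4 and CHOP that binds ATF4 and dampens its activity, had 356, 438 and 338 CPM in the depleted libraries, against 74.5, 79.1 and 74.0 CPM in the replete libraries. Depleted replicate 2, the lowest depleted library for CEBPB and CEBPG, was the highest for TRIB3. TRIB3 rose by 2.54 on the log2 scale (SE 0.10, edgeR adjusted p = 1.32e-10), and by 2.42 without depleted replicate 2.

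**Figure D3:**
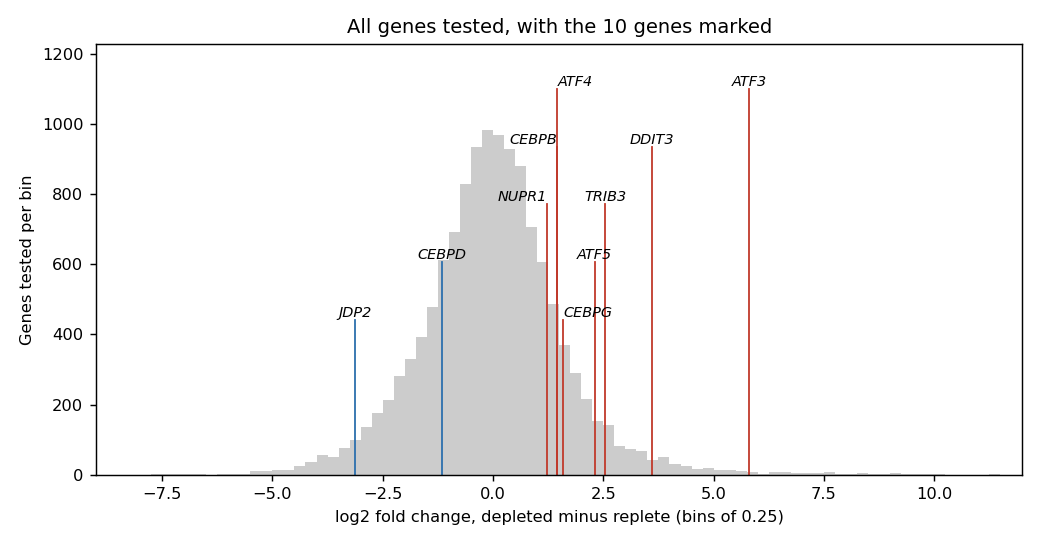
Number of genes tested per bin of log2 fold change (depleted minus replete, bins of 0.25), with lines at the 10 genes (red where higher, blue where lower in depleted cells). ATF4, CEBPB, CEBPG and NUPR1 lie on the right shoulder of a broad distribution, whereas ATF3 (5.80), DDIT3 (3.60) and JDP2 (−3.13) lie in its tails.

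Scaling between libraries matters where most genes change, so pairs of these genes were also compared by the ratio of their counts within each library, which no scaling alters. ATF3 had fewer counts than JDP2 in every replete library and far more in every depleted one. The log2 ratio of ATF3 over JDP2 was 7.68, 7.22 and 7.66 in the depleted libraries, against −1.85, −1.18 and −1.22 in the replete libraries, a difference of 8.94. DDIT3 passed CEBPB in the same way, with log2 ratios of 1.18, 1.60 and 1.31 in the depleted libraries, against −0.83, −0.79 and −0.75 in the replete libraries. The ratio of DDIT3 to CEBPG was 4.07-fold higher in depleted cells, with log2 ratios of 3.46 ± 0.36 in depleted and 1.44 ± 0.12 in replete cells (mean ± SD, n = 3 each). These ratios compare the change of the genes with each other and are not levels per length.

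Relative to ATF4 itself, counts of ATF3, TRIB3 and ATF5 were higher in every depleted library than in any replete one. The log2 ratio of ATF3 over ATF4 was −2.05 ± 0.08 in depleted and −6.41 ± 0.37 in replete cells, that of TRIB3 over ATF4 was −2.38 ± 0.19 in depleted and −3.45 ± 0.05 in replete cells, and that of ATF5 over ATF4 was −5.08 ± 0.11 in depleted and −5.92 ± 0.13 in replete cells (mean ± SD, n = 3 each). TRIB3 was lower relative to DDIT3 in depleted cells, with a log2 ratio of −1.73 ± 0.20 in depleted and −0.67 ± 0.05 in replete cells. CEBPB over CEBPG was the pair whose groups overlapped, at 2.10 ± 0.14 in depleted and 2.23 ± 0.14 in replete cells (exact two-sided permutation p = 0.30). The other 7 of the 8 pairs compared did not overlap, and each had an exact two-sided permutation p of 0.10, the smallest that 3 against 3 libraries can give, or 0.114 with Benjamini-Hochberg adjustment over the 8 pairs, so none can pass 0.05 in this design.

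**Figure D4:**
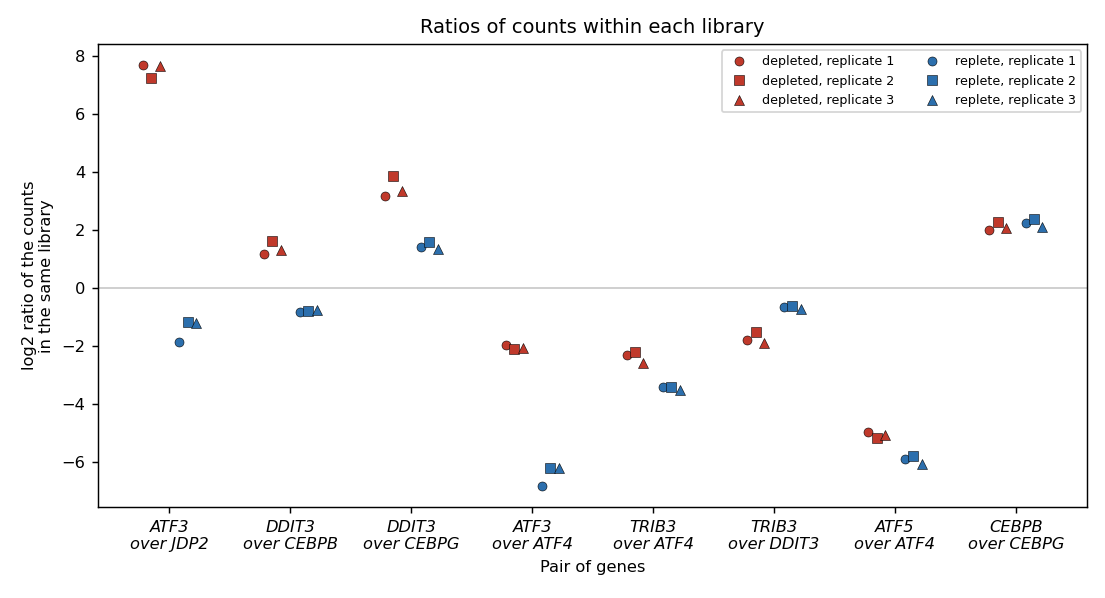
log2 ratio of the counts of a pair of genes in the same library, for the 3 depleted (red) and 3 replete (blue) libraries. ATF3 over JDP2 and DDIT3 over CEBPB change sign between the groups, and only CEBPB over CEBPG, at 1.99 to 2.26 in depleted and 2.09 to 2.36 in replete libraries, overlaps.

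The genes with the most similar profile were sought by the Euclidean distance between log2 CPM values centred over the 6 libraries, among 8498 other genes with a mean of at least 10 CPM. With only 2 groups, a small distance mostly means a similar fold change and a similar deviation of single libraries. DDIT3 was closest to PIM3, a serine/threonine kinase gene (distance 0.127), TRIML2 and IL6R, the interleukin-6 receptor gene. TRIB3 was closest to GNPDA1, an enzyme of glucosamine metabolism (0.126), SLC3A2, the heavy chain of heteromeric amino acid transporters, and PHLDA2. JDP2 was closest to the interferon-inducible gene IFI6 (0.161), the pentose phosphate enzyme PGD and the fatty acid-binding protein FABP5. ATF3 had no close match, the nearest being the receptor gene ACVR1C at 0.495, the phosphatase subunit PPP1R15A at 0.537 and AREG, an EGFR ligand, at 0.8003. ACVR1C had only 2 counts in each replete library, so its distance is poorly measured. The C/EBP genes were closest to M6PR (CEBPB, 0.0594), KYNU (CEBPG, 0.0984) and COX18 (CEBPD, 0.0936), ATF4 to TTC4 (0.0960), ATF5 to YTHDC1 (0.149) and NUPR1, at low counts, to MIER3 (0.493).

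The second question was how the genes around these factors behaved. A list of 49 known target genes of ATF4 and CHOP moved in both directions: of 48 tested, 26 (54.2%) rose, 16 (33.3%) fell and 6 did not pass, where 39.1% of all genes rose and 39.4% fell. The median log2 fold change was 0.52, against −0.02 over all genes. This list and those below were drawn up with earlier results of these data known. PPP1R15A (GADD34), the inducible subunit of the phosphatase that resets eIF2α, averaged 787 ± 40.8 CPM in depleted and 16.8 ± 0.698 CPM in replete cells (SD, n = 3 each, log2 fold change 5.78, edgeR adjusted p = 4.84e-14). The secreted factors GDF15 and STC2 rose by 3.46 and 3.25 on the log2 scale. Among those that fell, PSAT1, an aminotransferase of serine synthesis, averaged 71.0 ± 3.97 CPM in depleted and 448.1 ± 11.03 CPM in replete cells (log2 fold change −2.43, edgeR adjusted p = 1.07e-11), and MTHFD2, a mitochondrial folate enzyme, fell by 0.73. DDIT4, which restrains mTORC1, fell by 1.57, and EIF4EBP1, a repressor of translation initiation, fell by 1.78. The rise of ATF4, CHOP and TRIB3 mRNA was thus not shared by all genes known to follow ATF4.

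Further genes of the bZIP family were also listed, without the 8 bZIP genes above and without a claim to hold the whole family. Of 44 further bZIP genes, 36 passed the filter, and of these 27 (75.0%) rose, 7 (19.4%) fell and 2 did not pass, against 39.1% and 39.4% over all genes. The median log2 fold change was 1.63, against −0.02 over all genes. JUN, the AP-1 subunit that also pairs with ATF3, averaged 1041 ± 49.8 CPM in depleted and 14.98 ± 1.42 CPM in replete cells (SD, n = 3 each, log2 fold change 6.34, edgeR adjusted p = 4.84e-14). MAFF, a small MAF protein without an activation domain, rose by 5.27, and the FOS relatives FOSL2 and FOSL1 rose by 4.09 and 3.37. Among those that fell, NFE2L3, a relative of NRF2, averaged 0.130 ± 0.138 CPM in depleted and 7.46 ± 1.31 CPM in replete cells (SD, n = 3 each, log2 fold change −5.37, edgeR adjusted p = 1.36e-07), on 3, 1 and 0 counts in the depleted libraries. CREBZF fell by 0.99 on the log2 scale, and the membrane-bound factors CREB3L4 and CREB3L2 fell by 1.19 and 0.83. With only genes at a mean of 10 CPM or more, 21 of 26 (80.8%) rose and 4 (15.4%) fell, where 40.8% of all such genes rose and 41.0% fell.

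Genes that act upstream of ATF4 or on its protein moved in both directions. Of 30 genes for eIF2 kinases and their modulators, eIF2 and eIF2B subunits, phosphatase subunits (PPP1R15A again among them), TRIB relatives, proteins that mark ATF4 for degradation, and mTORC1 and AKT components, 12 (40.0%) rose, 8 (26.7%) fell and 10 did not pass, and the share that rose was close to the 39.1% of all genes. Over all genes 39.4% fell, and the median log2 fold change of the 30 genes was 0.03. With libraries scaled by their totals alone 9 rose and 14 fell, and with upper quartile factors 9 rose and 12 fell. EIF2AK4, which encodes GCN2, averaged 18.1 ± 3.52 CPM in depleted and 59.4 ± 2.54 CPM in replete cells (SD, n = 3 each, log2 fold change −1.49, edgeR adjusted p = 2.18e-07), and its coactivator GCN1 fell by 0.65. The double-stranded RNA-activated eIF2 kinase EIF2AK2 fell by 0.75. Of the other eIF2 kinase genes, EIF2AK3 rose by 0.55 (edgeR adjusted p = 0.000524) and EIF2AK1 did not pass (log2 fold change −0.06, edgeR adjusted p = 0.553). PPP1R15B, the constitutively expressed counterpart of PPP1R15A, rose by 1.58, the eIF2 subunit EIF2S2 by 1.31 and the exchange factor subunit EIF2B2 by 1.35. The other eIF2 and eIF2B subunit genes rose, fell or did not pass. TRIB2, a relative of TRIB3, had 5, 0 and 6 counts in the depleted libraries, against 75, 65 and 55 counts in the replete libraries (edgeR adjusted p = 8.32e-07). TRIB1, another relative, averaged 16.6 ± 1.62 CPM in depleted and 5.74 ± 1.57 CPM in replete cells (SD, n = 3 each, log2 fold change 1.74, edgeR adjusted p = 1.64e-06), so TRIB1 and TRIB3 rose while TRIB2 fell.

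**Figure D5:**
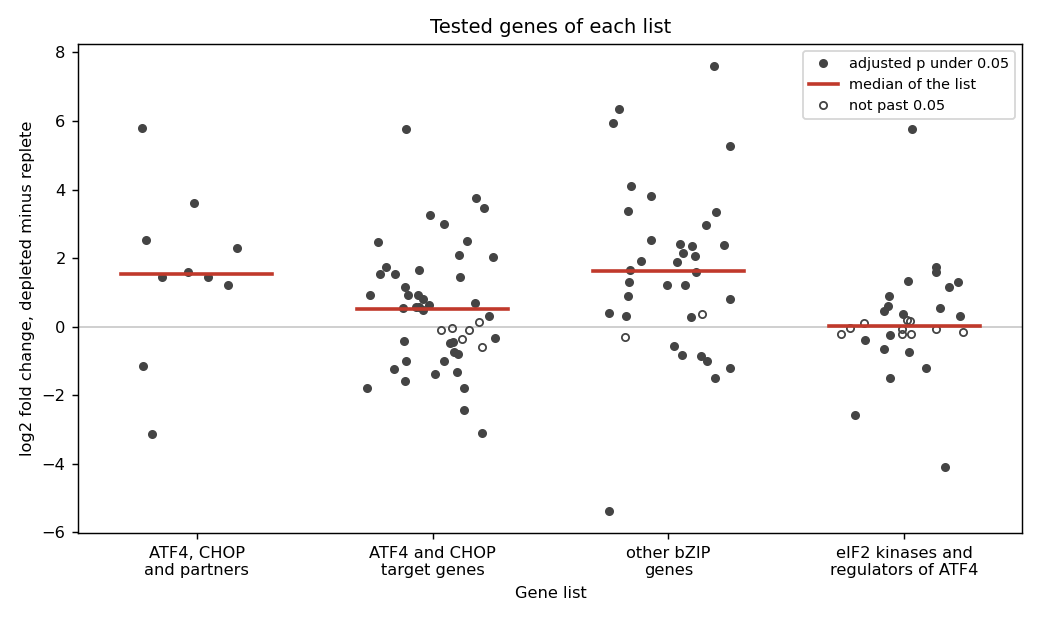
log2 fold change (depleted minus replete) of each tested gene in 4 lists, filled where the edgeR adjusted p was under 0.05, with a red line at the median of each list. The medians are 1.53 for the 10 genes, 0.52 for the ATF4 and CHOP targets, 1.63 for the other bZIP genes and 0.03 for the eIF2 kinases and regulators.

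Each log2 fold change is relative to trimmed-mean scaling. Scaling by library totals alone moved the median gene by −0.23 and the upper quartile factors moved it by −0.21, and under both the 8 genes that rose and the 2 that fell kept their direction and passed the threshold.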

How the data were processed

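RNA from 6 libraries of H460 cells was prepared with TRIzol and a Lexogen QuantSeq 3′ mRNA kit, per the labels' protocols. The authors deposited 1 table of raw counts by gene symbol for each library. Bowtie2, edgeR and the build hg19 are named in the submitters' processing notes without role or version. How and against which annotation reads were counted, and whether by strand, is not given in the sources used here. The annotation at hand is on another build, so the positions given are those of the RefSeq promoter windows (GRCh38.p14), not of the counted genes, and GENCODE 29 served for exon overlaps alone.

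Counts of the 286 symbols on several entries were summed. Genes were kept by filterByExpr (minimum count 10, minimum total 15), scaled by TMM factors and tested in edgeR 4.0.16 (R 4.3.3, quasi-likelihood, robust, two-sided), with Benjamini-Hochberg adjustment over all 12739 genes at 0.05. The standard error is the log2 fold change divided by the root of F. CPM uses library totals. Ratios within a library used a pseudocount of 0.5 and exact permutation (scipy 1.17.1). The test was also run on simulated counts, with the same dispersion for all genes and changes planted in few genes, as many up as down. Most genes changed in the real data, so that run cannot check the scaling or the calls made here.

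The 10 genes and the lists were chosen with earlier results of these data known. Named list genes are the 4 with the smallest p in each direction, and each of the 10 genes has its 3 nearest profiles, not all of which are described. NUP62, MARS and MBD6 are named for shared exons, and the markers, TRIB1 and the target genes with the octamer were named after their values were seen. So were the other synthetase genes, EIF2AK1 and EIF2AK3, which were not followed over the alternatives. A count of 0 allows up to 3 counts, or 0.275 to 0.397 CPM by library, for counting error only. Alternatives were DESeq2 1.42.0 and its size factors, library totals, upper quartile factors, other filters, limma-voom 3.58.1, a replicate block, the largest entry per symbol, a pseudocount of 1 and leaving out each library.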

Additional observations from a re-analysis of the deposited data

How the results depend on the processing

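Over 80 genes and 15 alternatives, 1187 of 1195 comparisons kept the direction and the side of the threshold, including all those of the 10 genes (NUPR1 is absent at a mean CPM of at least 10, which gives 7 of the 10 genes higher and 2 lower). The exceptions were NARS, whose call was lost under both other scalings that shift all genes (log2 fold changes 0.08 and 0.10), KRT18, which passed as lower with library totals, upper quartile factors and without depleted replicate 2 (−0.28, −0.26 and −0.11), and genes not called, namely CHAC1, which ran from −0.22 to 0.13 when single libraries were left out, turning positive without depleted replicate 1 and without replete replicate 1, and COL1A1, which ran from −0.062 without depleted replicate 3 to 2.13 without replete replicate 3. The log2 ratio differences of the 8 pairs kept their sign with a pseudocount of 1 and without each library. A count differed by more than 1.5 times in these cases: 4 further bZIP genes fell, against 7, at a mean CPM of at least 10, which tests fewer genes, and 14 upstream regulators fell, against 8, with library totals alone, which shifts all genes downwards. The labels do not say whether replicate numbers pair the samples. Correlations of same-numbered deviations were 0.197, 0.0474 and 0.0281, and those of unlike numbers ran from −0.148 to 0.0957. With so few replicates these values cannot decide it. With a replicate block, 4941 genes rose and 4999 fell, against 4987 and 5025 without it, and the 10 genes still gave 8 higher and 2 lower. Depth limits NUPR1 and JDP2 most, with 13 to 54 counts in NUPR1 libraries and 20 to 27 counts in depleted JDP2 libraries.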

Other observations

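The octamer TGATGCAA shown for JDP2 and CEBPG was also looked up in the other promoter windows. Among the 49 listed target genes of ATF4 and CHOP, 40 had a window under a current symbol and 9 of these held the octamer, against 1.08% of all 27305 genes with a window. The list was drawn from genes known to follow ATF4, so this share is a description and not independent evidence. Of the 9, 7 rose in depleted cells, all of them aminoacyl-tRNA synthetase genes except the transporter gene SLC1A4, with log2 fold changes from 0.31 for NARS to 2.47 for MARS (edgeR adjusted p from 2.86e-12 to 0.00184). The CPM ranges of NARS overlapped between the groups, and its call was lost with library totals alone (log2 fold change 0.08, edgeR adjusted p = 0.316) and with upper quartile factors (0.10, adjusted p = 0.248). CHAC1, a glutathione-degrading enzyme, did not pass the test (log2 fold change −0.04, edgeR adjusted p = 0.844), and FGF21, a stress hormone gene, had 1 count in all libraries and was not tested. MARS shares exon bases with DDIT3, so its value carries the limit given above. Of the listed synthetase genes not among the 9, SARS, YARS, GARS and WARS also rose, by 1.55, 1.65, 0.94 and 0.56 on the log2 scale. EPRS fell (log2 fold change −0.32). Shares over all windows took only genes whose symbol is the same in the windows and in the counts. The synthetase genes among the 9 have other symbols in the windows and were left out, although they were tested and rose. Of the 62 tested octamer genes matched in this way, 41.9% rose and 37.1% fell. Among the 9485 tested genes with a window under the same symbol, 39.7% rose and 39.7% fell. The shares of the 62 are therefore not those of every tested gene that holds the octamer. For the palindrome TGACGTCA, 52.3% of 384 tested genes rose and 28.6% fell. The shares for TGACTCA were close to these, as 50.1% of 449 tested genes rose and 31.8% fell. For the looser core TGATGNAA, which includes the octamer, 43.7% of 254 tested genes rose and 34.6% fell. Base composition and the number of starts per gene were not matched in these shares, and no test was made. The shares for the other motifs used the same match by symbol, so genes under another symbol in the windows are missing from them too.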
